A study of Mus musculus with 35 samples.

Results

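The Obox genes (oocyte specific homeobox) were followed in single mouse zygotes and early 2-cell (2C) embryos. Members were chosen by symbol from a list of 7 genes (Obox1, Obox2, Obox3, Obox5, Obox6, Obox7 and Obox8), of which 6 were among the 24480 genes of the count table; Obox8 was not analysed here. Embryos came from natural mating of C57BL/6NRj mice (superovulated females of 3 to 4 weeks) and were injected with mRNA encoding KDM5B joined to yellow fluorescent protein (Kdm5b-yfp mRNA) or with nuclease-free water. The groups held 10 water-injected (Ctrl) zygotes, 10 zygotes that received the mRNA (Kdm5b zygotes), 9 Ctrl 2C libraries and 6 Kdm5b 2C libraries. Total RNA was collected about 5 to 6 h after injection, which was 17 h after ovulation for zygotes and 5.5 to 8 h after division for 2C embryos, in which both blastomeres had been injected. Zygote libraries each held 1 embryo, whereas 3 Ctrl 2C libraries were pools of 2 or 3 blastomeres and 1 Kdm5b 2C library was a pool of 3 blastomeres. All 2C embryos, water-injected ones included, had been frozen and thawed at the 1-cell stage, and zygote and 2C libraries were prepared on separate days, so freezing, preparation day and stage cannot be told apart. No group received an inactive mRNA, so KDM5B activity cannot be told apart from the injection of mRNA as such. Because embryos from about 5 females were pooled before handling and the labels do not tie libraries to females, p-values measure the spread between these libraries.

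OBOX proteins are homeodomain transcription factors of the paired-like class, encoded by a mouse gene cluster that has grown by duplication. In mouse, Obox1, Obox2, Obox5 and Obox7 are known as maternal genes, whose mRNA is stored in the oocyte, while Obox3 is transcribed from the new embryonic genome, and the family is known for helping RNA polymerase II to reach genes at embryonic genome activation. KDM5B removes methyl groups from lysine 4 of histone H3, and its trimethylated form (H3K4me3) covers broad domains in the oocyte that are lost at the 2C stage. The comparison therefore asks whether removing this mark early changes the maternal store of these regulators or the onset of the embryonic members.

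Libraries held between 8705584 and 17797581 counted fragments. Kdm5b took 2.30 to 10.4% of fragments in Kdm5b zygotes and 8.27 to 15.8% in Kdm5b 2C embryos, but at most 0.0189% in any water-injected library, so every library matched its label; its row was left out of all totals below. Levels are given as TPM (fragments per base of transcript, scaled to the same total in every library). A level is thus a share of the RNA in a library and not an amount per embryo. All 8 oocyte and zygote markers had a median of at least 1 TPM in each group, and their summed level was 9990 to 12913 TPM in Ctrl zygotes and 5468 to 9666 TPM in Ctrl 2C embryos. The 4 markers of the 2C stage summed to 2.61 to 24.4 TPM in Ctrl zygotes, 99.6 to 427 TPM in Ctrl 2C and 123 to 365 TPM in Kdm5b 2C embryos. Of 10 cumulus cell markers, 1 or 2 per group had a median of at least 1 TPM, led by Cyp19a1 (13.0 to 30.6 TPM), with Amh at a median of 0 in every group. The 4 sperm markers summed to at most 68.1 TPM in any library, led by Prm2 (group medians of 6.24 to 21.2 TPM), and Tnp2 had 0 fragments throughout.

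All 6 members lie on mouse chromosome 7 (GRCm38) within 1180.0 kb, with 0 other genes of the count table between them. Obox7 (4 exons, plus strand, 14659708 to 14665996) stands apart at the left end. Obox2 (4 exons, plus strand, 15388851 to 15398545), Obox1 (4 exons, plus strand, 15547257 to 15556846), Obox3 (5 exons, minus strand, 15625306 to 15639777), Obox5 (4 exons, plus strand, 15750370 to 15759274) and Obox6 (3 exons, minus strand, 15833250 to 15839679) follow. The nearest neighbours to the right are Crx and Crxos, both homeobox genes, and to the left Vmn1r90, which encodes a vomeronasal receptor, and the pseudogene Nlrp5-ps.

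Window sequences around the annotated start site (250 bases before to 50 after; RefSeq, GRCm38.p6) were found for 5 of the 6 members. They are shown because maternal members and the embryonic member Obox3 carry nearly the same start region. In the following lines capitals mark 2 runs that every window reaching that place holds without a difference.
Obox1, chr7:15547159-15547298, plus strand: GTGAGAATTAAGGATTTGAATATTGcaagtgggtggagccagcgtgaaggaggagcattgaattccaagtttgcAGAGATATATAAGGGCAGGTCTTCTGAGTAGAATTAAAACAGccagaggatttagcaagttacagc
Obox2, chr7:15388850-15388900, plus strand: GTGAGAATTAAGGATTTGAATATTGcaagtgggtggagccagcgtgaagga
Obox5, chr7:15750260-15750399, plus strand: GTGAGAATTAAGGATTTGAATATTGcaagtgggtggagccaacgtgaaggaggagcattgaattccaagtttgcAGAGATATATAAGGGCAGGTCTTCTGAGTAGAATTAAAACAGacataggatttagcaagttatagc
Obox7, chr7:14659624-14659757, plus strand: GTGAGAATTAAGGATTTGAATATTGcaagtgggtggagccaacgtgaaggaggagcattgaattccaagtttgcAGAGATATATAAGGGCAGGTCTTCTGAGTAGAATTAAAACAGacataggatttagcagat
Obox3, chr7:15639747-15639886, minus strand: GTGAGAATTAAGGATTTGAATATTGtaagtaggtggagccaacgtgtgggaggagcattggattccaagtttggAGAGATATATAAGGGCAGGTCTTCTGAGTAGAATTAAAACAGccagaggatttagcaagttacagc

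The first capital run, of 25 bases, is in all 5 windows and in none of the other windows among 32817. The second, of 42 bases, is in Obox1, Obox5, Obox7 and Obox3 and in no other window; the Obox2 window ends before that place, since its annotated start lies further upstream. It holds the TATA-like letters ATATAAG, starting 18, 30, 4 and 29 bases before the annotated start of Obox1, Obox5, Obox7 and Obox3, letters that 2.526% of all windows hold on either strand and that were searched only after these windows had been read. The OTX and OBOX type homeodomain letters TAATCC were found in Obox3 (168 bases before the start) and in 7.063% of all windows. The homeodomain letters TAATTA were found in 0 of the 5 windows against 5.296% of all. The nuclear receptor letters AAGGTCA were found in Obox1, Obox2 and Obox7 (4.723% of all windows), TATAAA in Obox3 (13.621%), CCAAT in Obox2, Obox7 and Obox3 (37.389%), and CACGTG in none (7.149%). A match describes the letters and not a bound site. Over the aligned parts, windows were between 88.1% (Obox2 and Obox3) and 100% identical (Obox1 and Obox2, 203 bases).

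This likeness continues in the transcripts and limits what the counts can tell. Obox1 and Obox2 transcripts were 98.8% identical over 1464 aligned bases, and Obox5 and Obox7 93.6% over 1209, whereas Obox6 was 67.9 to 68.9% identical to the other 5. Fragments that fit several places were not counted by the authors. Of all windows of 91 bases along GENCODE M21 transcripts, 55.95% of those of Obox1 and 50.87% of those of Obox2 occurred in no other gene, against 97.17% for Obox5, 96.55% for Obox7, 90.01% for Obox3 and 99.92% for Obox6. Between Obox1 and Obox2 789 windows were shared, so the levels of these 2 genes may be too low and their split is uncertain. By this measure, the levels of Obox5, Obox7 and Obox6 rest almost fully on their own sequence. The measure was taken over transcripts and not over the genome. With windows of 50 bases the share was 81.94% for Obox5, 78.87% for Obox7 and 94.98% for Obox6.

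**Figure D1:**
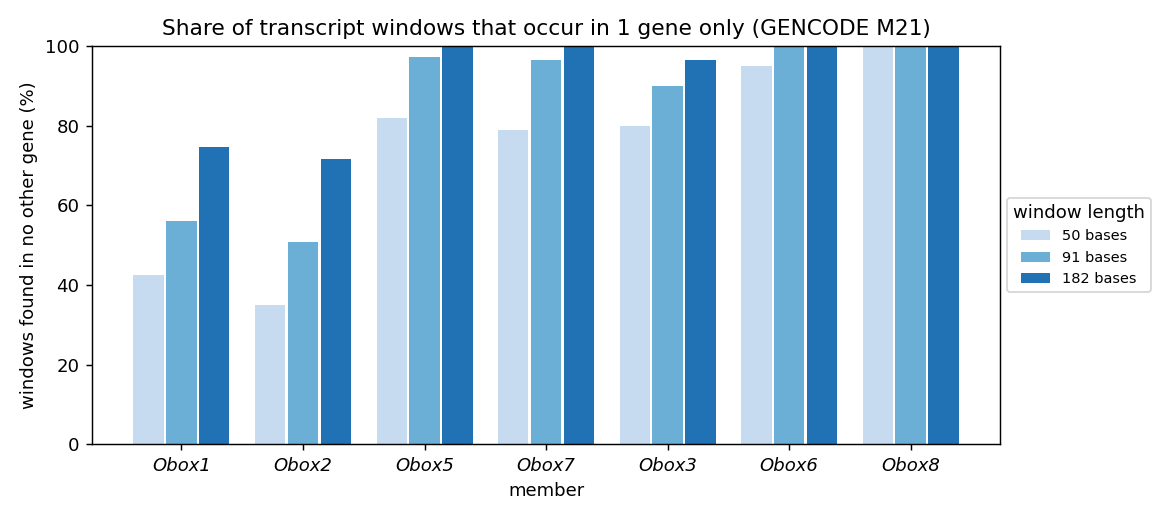
Share of windows along each member's GENCODE M21 transcripts that occur in no other gene (y axis, percent), for 3 window lengths (bars, the shortest of 50 and the middle of 91 bases), by member (x axis). Obox1 and Obox2 are the lowest at each length (42.58 and 34.85% at 50 bases), and Obox6 reaches 99.92% at 91 bases.

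In Ctrl zygotes, 4 members were abundant and 2 were close to absent. Obox5 ranged from 1723 to 2660.5 TPM (median 2112), Obox2 from 1520.2 to 2324 TPM (median 1905) and Obox1 from 1524 to 1962 TPM (median 1729). The ranges of these 3 overlapped, and Obox5 exceeded Obox2 in 6 of 10 zygotes and Obox2 exceeded Obox1 in 7 of 10. Each lay above 99.8% of all genes by median level. Obox7 was 7.37-fold below Obox1 in median, at 139.7 to 278 TPM (median 235), without overlap. Obox6 had 0.141 to 2.02 TPM (1 to 14 fragments) and Obox3 0 to 2.95 TPM (0 to 22 fragments, with 0 in 3 zygotes). The maternal group was thus set apart from Obox3 and Obox6 in each of the 10 zygotes, and the 4 maternal members together made up 0.535 to 0.681% of all TPM.

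By the 2C stage the order had changed. In Ctrl 2C embryos Obox5 led without overlap, at 2848 to 4542 TPM (median 3368), and took 48.7 to 67.5% of the family's summed TPM, against 32.2 to 39.1% in Ctrl zygotes. Obox1 came next with 852 to 2125 TPM (median 1336) and Obox2 with 531 to 1517 TPM (median 760.3); their ranges overlapped, although Obox1 was the higher in 9 of 9 libraries. Obox7 stayed at 191 to 265 TPM (median 240.4). Obox3 reached 7.47 to 81.2 TPM (median 18.0) and Obox6 2.04 to 80.5 TPM (median 16.8), which could not be ranked, since Obox3 was the higher in 5 of 9 libraries. Despite these shifts, the 4 maternal members still summed to 0.482 to 0.759% of all TPM.

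**Figure D2:**
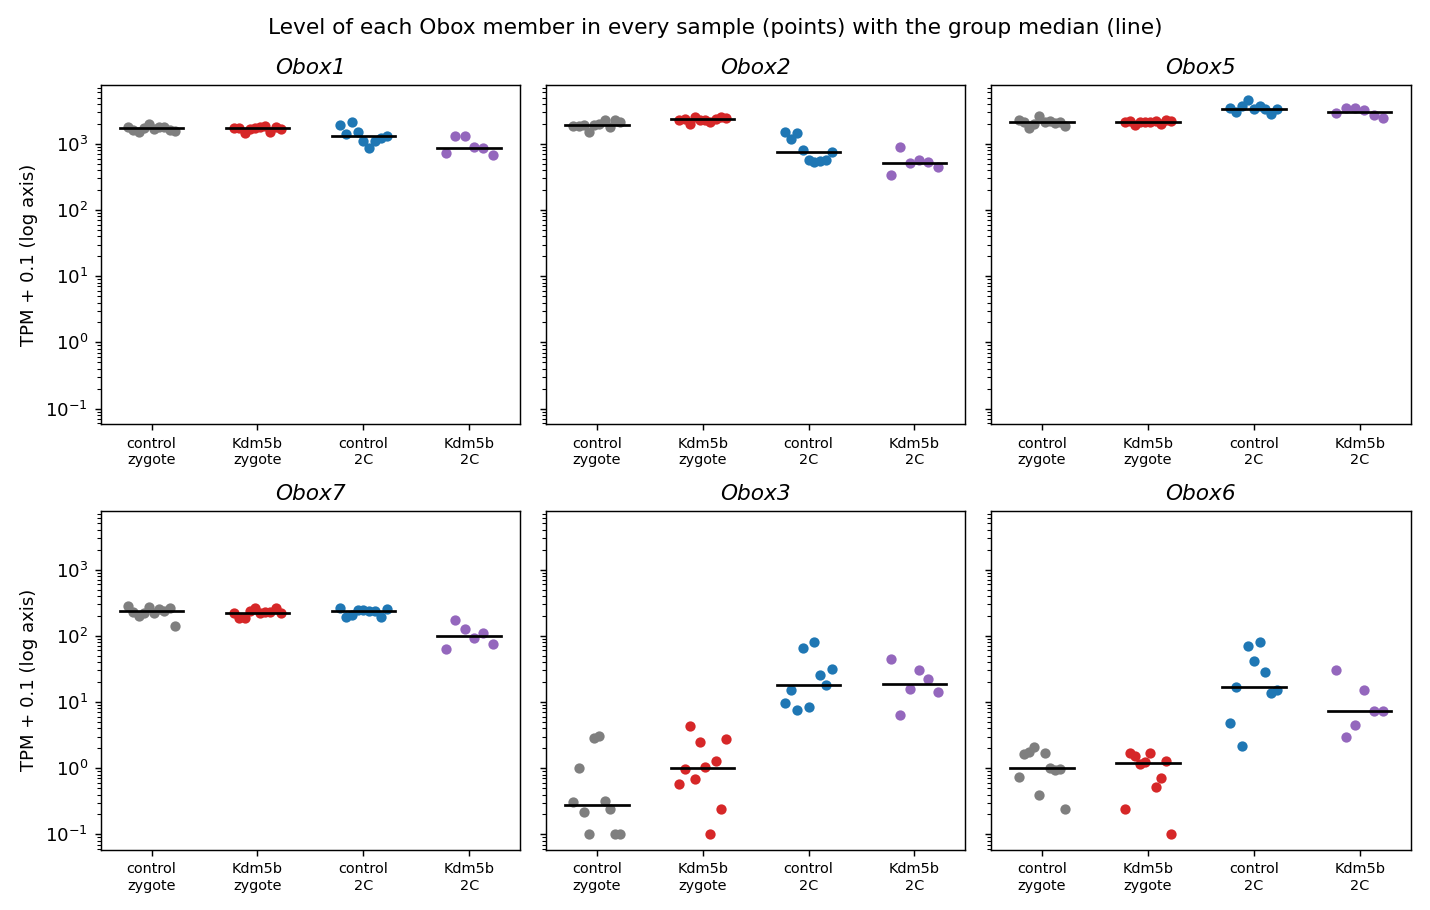
TPM + 0.1 on a log axis for each member (panels) in the 4 groups (x axis), with 1 point per library and a line at the group median. Obox1, Obox2, Obox5 and Obox7 are high in both stages, while Obox3 and Obox6 lie near 1 TPM or below in most zygotes and mostly above 5 TPM in 2C embryos.

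Tested between Ctrl 2C and Ctrl zygotes (edgeR's quasi-likelihood test, Benjamini-Hochberg adjusted over 11968 genes), a gene was called at an adjusted p under 0.05 with a log2 fold change beyond 1. Of 6 members, 2 were called higher and 1 lower, against 9.20% of all genes called higher and 13.0% called lower. Among the embryonic members, Obox3 rose by 5.42 on the log2 scale (standard error 0.72, adjusted p = 6.55e-07) and Obox6 by 4.90 (standard error 0.58, adjusted p = 1.01e-07), and all 9 Ctrl 2C libraries lay above the highest Ctrl zygote for both. Both had too few fragments in zygotes to pass the filter there and passed through the 2C group, where they are high, so these calls describe the levels above and add no support to them. Among the maternal members, Obox2 fell by 1.07 on the log2 scale (standard error 0.18, adjusted p = 1.68e-05), with all 9 libraries below the lowest zygote. With single intact embryos only, Obox2 was no longer past the fold threshold (-0.89, adjusted p = 0.000633). Obox5 was higher by 0.82 (standard error 0.08, adjusted p = 8.98e-09), again in 9 of 9 libraries without overlap, but below the fold threshold. Obox1 gave -0.22 (standard error 0.12, adjusted p = 0.146) and Obox7 0.08 (standard error 0.11, adjusted p = 0.571, interval of 2 standard errors from -0.14 to 0.29). The maternal members thus had values on both sides of 0, whereas the median over all genes was 0.02. The summed level of oocyte and zygote markers was lower in 2C libraries too, as given above; the part of the overall composition in these values was not tested.

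The same comparison within Kdm5b embryos (12390 genes) called Obox3 (log2 fold change 4.07, standard error 0.53) and Obox6 (3.64, standard error 0.57) higher and Obox2 (-1.98, standard error 0.15) lower, with adjusted p of 4.94e-07, 5.96e-06 and 5.28e-11. That is 2 members higher and 1 lower, against 10.5% and 16.0% of all genes, and both higher ones again passed the filter through the 2C group. Obox5 was higher by 0.60 (adjusted p = 1.66e-07), which is below the fold threshold. Obox1 had -0.72 (adjusted p = 2.00e-05) and Obox7 -0.98 (adjusted p = 1.09e-05), both below the fold threshold, and for each of these 2 all 6 Kdm5b 2C libraries lay below every Kdm5b zygote. Obox7 passed the threshold when Kdm5b zygote 2 or 3 (-1.02 and -1.01) or Kdm5b 2C library 2 or 3 (-1.18 and -1.03) was left out. It also passed in the fits with no filter on low counts (-1.05) and with the replicate number as a block (-1.01).

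**Figure D3:**
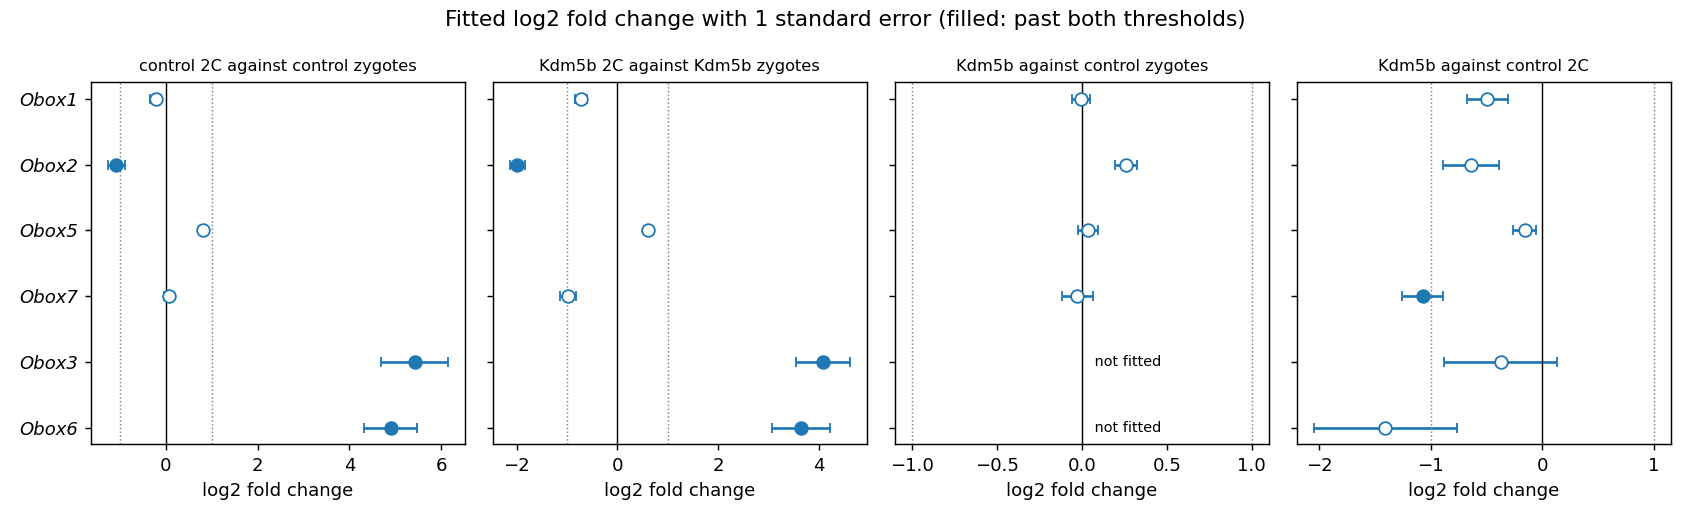
Fitted log2 fold change (x axis) of each member in 4 comparisons (panels), with bars of 1 standard error; filled points passed both thresholds and dotted lines mark a log2 fold change of 1 in either direction. Obox3 (5.42) and Obox6 (4.90) stand to the right in Ctrl 2C against Ctrl zygotes, and Obox7 (-1.07) is the filled point in Kdm5b against Ctrl 2C.

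In zygotes, no maternal member passed the test between Kdm5b and Ctrl embryos. Obox7 had 187 to 264 TPM (median 224) in Kdm5b zygotes, Obox5 1949.6 to 2326 TPM (median 2162) and Obox1 1446 to 1855 TPM (median 1739), all overlapping the control ranges above. Obox2 had 1973 to 2549 TPM (median 2352) and exceeded the highest Ctrl zygote in 5 of 10 libraries. In edgeR, 0 of the 4 members with enough fragments were called (0.00838% of 11933 genes were), 1 had an unadjusted p under 0.05 (10.3% of all genes did), and DESeq2 also called 0. That member was Obox2, at 0.26 on the log2 scale (standard error 0.06, adjusted p = 0.0941), a size far below the fold threshold. Its adjusted p was 0.0186 in DESeq2 and 0.0390 once the run of index numbers (strip, described below) was a covariate, and ranged up to 1.00 over the settings tried. The intervals of 2 standard errors ran from -0.11 to 0.10 for Obox1, from -0.08 to 0.15 for Obox5 and from -0.21 to 0.15 for Obox7. Obox3 and Obox6 did not reach the minimum of fragments and were not fitted; they had 0 to 4.19 TPM and 0 to 1.59 TPM in Kdm5b zygotes.

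In 2C embryos, Obox7 fell. It had 63.3 to 173 TPM in Kdm5b 2C (median 101; 275 to 734 fragments) and 191 to 265 TPM in Ctrl 2C embryos (median 240.4; 873 to 1327 fragments). All 6 Kdm5b libraries lay below all 9 controls. On the log2 scale the difference was -1.07 with a standard error of 0.18 (edgeR over 12244 genes, adjusted p = 0.0287), and Obox7 was the 1 gene called lower (0.00817% of genes), so 1 of 6 members was called lower. DESeq2 gave -1.08 (adjusted p = 6.59e-06). The paper, which used DESeq2 with the same thresholds for these 2C groups, reports no transcript that differed between them. Why the results differ was not tested. Over 11 fits, the one above and 10 that changed the scaling, filter, tool, samples or covariates, it stayed between -1.13 and -0.99 and was called in 8; it was not called with single intact embryos only (-0.99, adjusted p = 0.329), with the replicate number as a block (-1.13, adjusted p = 0.0583) or within 1 strip, given further on. Leaving out any of 10 libraries ended the call, namely Ctrl 2C 1, 4, 5, 7 or 9 and Kdm5b 2C 1, 3, 4, 5 or 6 (adjusted p from 0.0512 to 0.175, log2 fold changes from -1.12 to -0.95).

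The other maternal members had estimates of the same sign and did not pass the test. Obox2 had 339 to 894 TPM in Kdm5b 2C embryos (median 518; log2 fold change -0.64, standard error 0.25, adjusted p = 0.416), and 4 of 6 libraries lay below every control. Obox1 had 671 to 1328 TPM (median 879.7; -0.49, standard error 0.19, adjusted p = 0.395), with 2 of 6 below every control. Obox5, the most abundant member, had 2498 to 3519.8 TPM (median 3051.5; -0.16, standard error 0.10, adjusted p = 0.707). Of the embryonic members, Obox3 had 6.31 to 44.3 TPM (median 18.7; -0.37, standard error 0.50, adjusted p = 0.893) and Obox6 2.89 to 29.8 TPM (median 7.25; -1.41, standard error 0.64, adjusted p = 0.497), both with wide overlap of the controls. All 6 members thus had estimates below 0, with a median of -0.56 beside -0.0028 over all genes, and 4 had an unadjusted p under 0.05, against 4.91% of all genes that were lower at that p. The 6 estimates are not independent, since Obox1 and Obox2 share much of their sequence and other members varied together too. Over the 15 2C libraries, r of log2 CPM around the group means ran from -0.79 (Obox1 and Obox6) to 0.84 (Obox1 and Obox2). It was 0.78 for Obox3 and Obox6 and -0.03 for Obox5 and Obox6. The estimates of Obox3 and Obox6 moved near or above 0 once index strips, described below, were taken into account.

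Libraries of the 2C stage fell into 2 runs of 8 consecutive index numbers (index strips 11 and 12), and the members differed between them. Strip 11 held Ctrl 2C libraries 1 to 3 and 5 of the 6 Kdm5b 2C libraries, and strip 12 held Ctrl 2C libraries 4 to 9 and 1 Kdm5b 2C library. Among Ctrl 2C embryos, Obox2 had 1172 to 1517 TPM in strip 11 and 531 to 795 TPM in strip 12, without overlap. Obox6 had 2.04 to 16.8 TPM in strip 11 and 13.6 to 80.5 TPM in strip 12, and Obox3 7.47 to 14.9 and 8.36 to 81.2 TPM. Obox7 overlapped, at 194 to 265 and 191 to 252 TPM. Strip 12 also held all pooled Ctrl libraries, and the part of pooling and of the strip in these values was not tested.

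Taking the strip into account moved the values of 4 members most. With the strip as a covariate, Obox2 gave -0.91 (adjusted p = 0.0232) and Obox1 -0.70 (adjusted p = 0.0463), both below the fold threshold, and Obox7 -1.02 (adjusted p = 0.0131), which passed. Obox3 turned to 0.61 (adjusted p = 0.675) and Obox6 went to -0.04 (adjusted p = 0.989). Within strip 11 alone (3 Ctrl and 5 Kdm5b libraries, a fit added after the data were seen), Obox2 was called lower (-1.27, adjusted p = 0.0320), Obox7 gave -0.99 (adjusted p = 0.114) and Obox1 -0.82 (adjusted p = 0.0933), while Obox3 gave 1.09 (adjusted p = 0.452) and Obox6 0.62 (adjusted p = 0.828). In that strip, the Kdm5b libraries had 63.3 to 173 TPM of Obox7 and 339 to 894 TPM of Obox2, all below its controls. Strip 12, with 1 Kdm5b library, gave no value of its own.

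**Figure D4:**
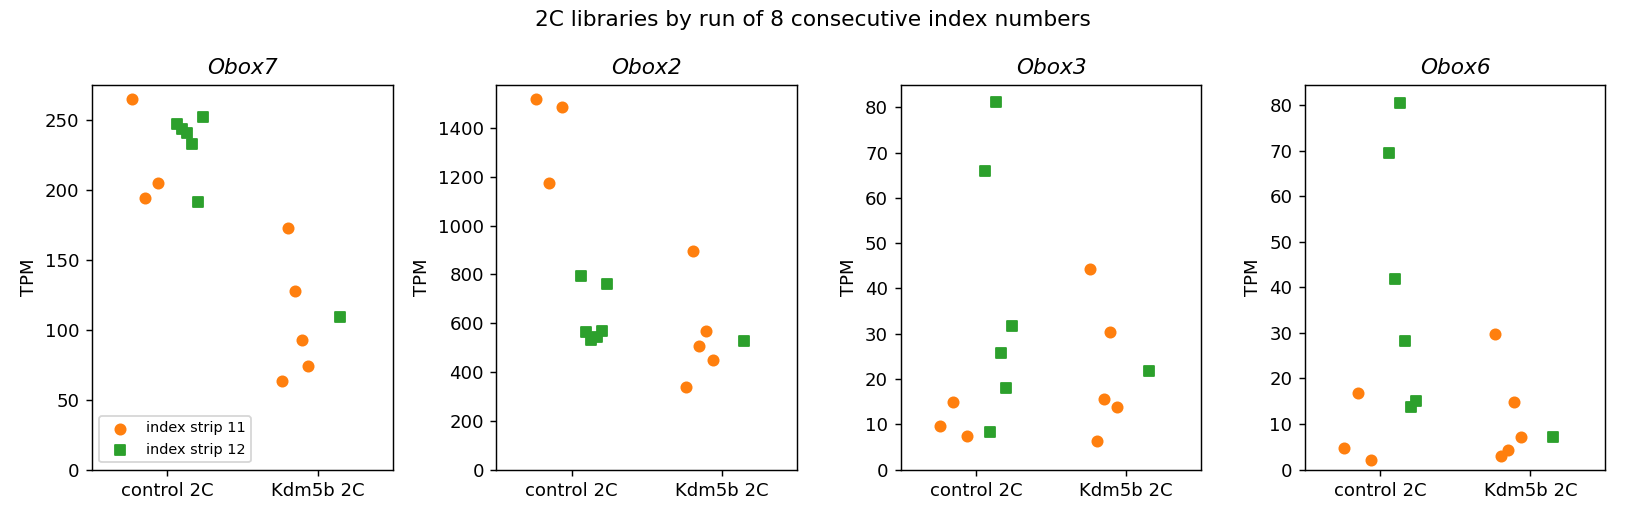
TPM (y axis, from 0) of Obox7, Obox2, Obox3 and Obox6 in the 2C libraries, by injection (x axis) and by run of 8 consecutive index numbers (orange circles strip 11, green squares strip 12). Obox7 is lower in Kdm5b libraries in both strips (at most 173 TPM), while Obox2 is high in the 3 control libraries of strip 11 (1172 to 1517 TPM).

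Whether the injection acted differently at the 2 stages was tested as an interaction over all 35 libraries and 13778 genes, of which 0.0145% were called. Obox7 was called, at -1.04 (standard error 0.19, adjusted p = 0.0152), so its change in 2C embryos differed from that in zygotes. The share of Kdm5b fragments differed too, with a median of 3.91% in Kdm5b zygotes and 11.3% in Kdm5b 2C libraries. Dose, freezing, preparation day and stage therefore cannot be told apart in this difference. The call held in 32 of the 35 fits that left out 1 library; without Ctrl zygote 10, Kdm5b 2C 1 or Kdm5b 2C 6, and with single intact embryos only, the value fell just short of the fold threshold (-0.98, -0.92, -0.97 and -0.98), with adjusted p of 0.0163, 0.0282, 0.0354 and 0.0308. Obox2 gave -0.90 (standard error 0.25, adjusted p = 0.144) and was called without Kdm5b 2C library 2 (-1.10, adjusted p = 0.0224) and with the strip as a covariate (-1.19, adjusted p = 0.00069). Obox1 (-0.49, adjusted p = 0.355), Obox5 (-0.19, adjusted p = 0.629), Obox3 (-1.32, adjusted p = 0.713) and Obox6 (-1.23, adjusted p = 0.686) did not pass.

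The share of Kdm5b fragments served as a measure of dose. Among the 6 Kdm5b 2C libraries the highest Obox7 level, 173 TPM, was in the library with the lowest Kdm5b share (8.27%) and the lowest, 63.3 TPM, in one with 13.2%. Per doubling of that share, the fitted slope was -0.95 for Obox7 (standard error 0.34, unadjusted p = 0.0146 from edgeR, adjusted p = 0.548), -0.70 for Obox1 (standard error 0.24, adjusted p = 0.545) and 2.28 for Obox6 (standard error 0.95, adjusted p = 0.596). Of 9499 genes 0% passed, so 0 of 6 members were called in edgeR; 3 members had an unadjusted p under 0.05 (7.82% of all genes did), and DESeq2 called 0 members. Among the 10 Kdm5b zygotes (10273 genes, 0% called) 0 of 4 fitted members passed by either tool and 1, Obox2, had an unadjusted p under 0.05 (slope 0.12, adjusted p = 0.999), as did 3.59% of all genes.

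**Figure D5:**
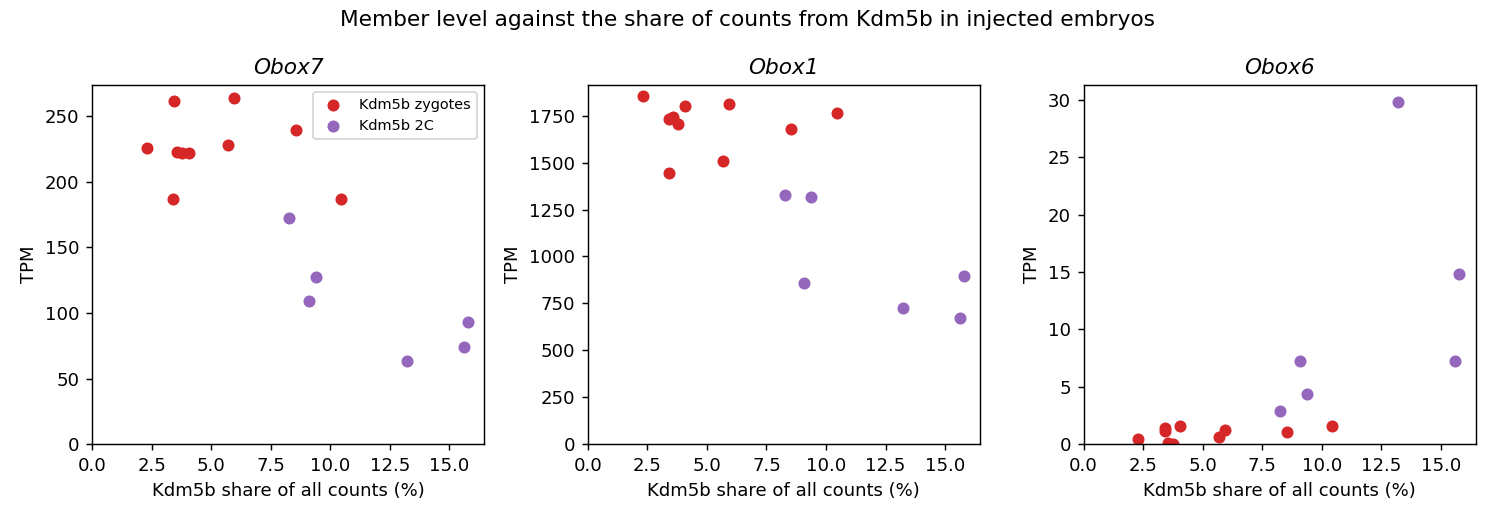
TPM (y axis, from 0) of Obox7, Obox1 and Obox6 against the share of all fragments that came from Kdm5b (x axis, percent) in Kdm5b zygotes (red) and 2C libraries (purple), 1 point per library. In zygotes Obox7 stays between 187 and 264 TPM up to a share of 10.4%, while 2C libraries, at 8.27 to 15.8%, lie between 63.3 and 173 TPM. Only Kdm5b zygotes 2 (10.4%, 187 TPM) and 4 (8.54%, 240 TPM) have shares within the 2C range.

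Genes whose pattern was most like each member were taken by Pearson r of log2 CPM over the 35 libraries, among 13778 genes. Since the libraries form 4 groups, r takes in the differences between groups, and it is given as a description. Closest to Obox1 were Nlrp4a (0.93), Zfp873 (0.92) and Fam90a1a (0.92), and to Obox2 Nono, which encodes a paraspeckle protein (0.96), Rgs2, a regulator of G protein signalling (0.96), and Champ1 (0.95). Obox5 was closest to Helq, a DNA helicase (0.93), Psme3, a proteasome activator subunit (0.92), and Usp37, a deubiquitinase (0.92). Obox7 had the lowest likeness, with Tbc1d19 (0.83), Gfm2 (0.82) and Pcna, the replication clamp (0.80). Obox3 was closest to Slc34a2, a phosphate transporter (0.92), Cab39 (0.91) and Med13, a Mediator subunit (0.91), and Obox6 to B020004C17Rik (0.92), Dnaaf2 (0.92) and Hnrnpab, an RNA-binding protein (0.91). Around the group means, r with the first gene was 0.85 for Obox1, 0.76 for Obox2, 0.65 for Obox6, 0.60 for Obox3, 0.57 for Obox5 and 0.57 for Obox7.

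Other regulators of genome activation and the homeobox genes outside the family give the setting. Of 29 fitted genome activation factors (33 were in the table), 8 were called higher and 1 lower in Ctrl 2C against Ctrl zygotes (median log2 fold change 0.54). Of all genes, 9.20% were called higher and 13.0% lower. Zscan4d, a marker of the 2C stage, had 15.4 to 131 TPM against 2.36 to 14.2 TPM (log2 fold change 3.41, adjusted p = 1.91e-08), Klf5 rose by 4.53 and Esrrb fell by 1.01. Zscan4f, also called higher, had 0 to 42.2 TPM in Ctrl 2C against 0 to 1.56 TPM (median 0) in Ctrl zygotes. A gene this low in zygotes passes the filter through the 2C group, where it is high. Its call therefore adds no support to its levels, and the 8 higher factors include it. Of 41 fitted homeobox genes (65 were in the table), 6 were called higher and 2 lower (median 0.23), beside the same shares of all genes. Nobox, an oocyte homeobox factor, had 372 to 505 TPM in Ctrl zygotes and 135 to 275 TPM in Ctrl 2C embryos and fell by 1.16 (adjusted p = 2.71e-09), and Lhx2 fell by 1.16, while Lmx1a rose by 3.06 and Dlx3 by 3.85. Dlx3 had 0 to 2.07 TPM in Ctrl zygotes (median 0.243), so the 6 higher homeobox genes may hold calls made through the 2C group too. Of 36 genes known from the 2C stage, 30 were fitted between the Ctrl stages but 15 between the zygote groups, so many passed the filter through the 2C group and no count of calls is given. Among them Gm5662 had 36.6 to 184 TPM in Ctrl 2C embryos against 0 to 0.454 TPM in Ctrl zygotes, Zscan4a 12.3 to 67.7 against 0 to 0.953 TPM and Gm8300 18.7 to 134 against 0 to 1.93 TPM, while Arg2 fell by 1.47 (31.1 to 154 against 223 to 301 TPM).

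Of the neighbours, Nlrp5-ps had 2.46 to 9.90 TPM in Ctrl 2C embryos against 1.39 to 5.06 TPM in Ctrl zygotes and was called higher (log2 fold change 1.08, adjusted p = 0.00443). Crxos had a median of 1.78 TPM in Ctrl 2C embryos and of 0 TPM in Ctrl zygotes, with 6 of 9 libraries above every zygote, and was not fitted. Crx stayed at or below 3.26 TPM and Vmn1r90 at 0 TPM in these 2 groups.

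Between Kdm5b and Ctrl 2C embryos, edgeR called 0 genes of all 3 lists. At an unadjusted p under 0.05, which 9.41% of all genes reached, were 3 of 29 genome activation factors, with Klf17 first (median 650.0 against 1018 TPM, log2 fold change -0.49, adjusted p = 0.248). Of the homeobox genes 5 of 45 did, with Nobox first (89.7 to 135.5 TPM in Kdm5b against 134.8 to 275 TPM in Ctrl 2C embryos, log2 fold change -0.73, adjusted p = 0.108). Of the 2C genes 6 of 35 did, with Zscan4a first (median 11.2 against 41.6 TPM, log2 fold change -1.69, adjusted p = 0.154). Below 0 were 33 of 35 estimates (median -0.58), beside a median of -0.0028 over all genes. The share of all genes below 0 is not given. These estimates are without the strip as a covariate, with which Obox6 went from -1.41 to -0.04 and Obox3 from -0.37 to 0.61. How many 2C genes stay below 0 with that covariate is not given here. DESeq2 called 0 factors, 0 homeobox genes and 2 of the 2C genes, both lower, and its share of calls over all genes is not given here.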

How the data were processed

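The 4 groups followed the labels. Per the labels and the study's methods, the authors trimmed reads with fastp (0.21.0), aligned them with STAR (2.7.3a) to GRCm38 and deposited counts of fragments per gene, made with featureCounts (1.5.1) on the sense strand from fragments with 1 place in the genome; SAMtools (1.10) and DESeq2 (1.30.1) are also named. Here the Kdm5b row was left out, TPM was computed with the table's gene lengths, and edgeR (4.0.16, R 4.3.3; TMM scaling, filterByExpr with a minimum count of 10, quasi-likelihood test) was fitted to the groups of each comparison over all genes. SE was taken as the fold change over the root of F. Alternatives were DESeq2 (1.42.0), other scalings and filters, a block for the replicate number, a covariate for the index strip (runs of 8 label index numbers) and single libraries left out. The fits were tested on simulated data. Between 8705584 and 17797581 fragments per library were counted; PCR copies were kept, and 0 pairs of libraries were identical. The unique windows were taken over 141767 GENCODE M21 transcripts instead of a genome. Named genes were the members, their neighbours, the 3 most alike genes per member, and from each list up to 3 genes called in each direction by p between the Ctrl stages and the 1 with the smallest p in Kdm5b against Ctrl 2C. A gene that this rule names is not reported here. The members, lists and tests were chosen with earlier results of these data known.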

Additional observations from a re-analysis of the deposited data

Results flagged for a closer look

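Obox7 was the 1 member whose response to Kdm5b-yfp mRNA differed between the stages by the test of the difference itself (2C minus zygotes, log2 -1.04, adjusted p = 0.0152 in edgeR). Dose, freezing, preparation day and stage cannot be told apart in that difference. None of the 24 groups of member levels held a library far from the others by Dixon's test, which flags about 1 group in 20 by chance.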

How the results depend on the processing

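Counts of members called kept within 1.5 times in most settings. The Obox2 call in Ctrl 2C against Ctrl zygotes was lost with single intact embryos (0 members lower). In Kdm5b 2C against Kdm5b zygotes 2 members were lower with no filter on low counts and with the replicate block, 3 with no fold threshold, and 1 was higher with a mean count of at least 50; leaving out single libraries gave 2 lower wherever the count moved. In Kdm5b against Ctrl 2C 0 members were lower with the replicate block (Obox7, adjusted p = 0.0583), with intact embryos, and where leaving out a library moved the count. In the interaction 2 were lower with the strip covariate, 0 with intact embryos, and 0 to 2 without single libraries.

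Of the lists in Ctrl 2C against Ctrl zygotes, 15 genome activation factors were higher with no fold threshold and 7 lower; 3 were lower with no filter, 2 with all samples in a single fit or the replicate block, 0 with DESeq2, its size factors or a mean count of at least 50, and 0 to 2 without single libraries. Of homeobox genes 10 were higher and 4 lower with no filter, 16 and 5 with no fold threshold, 11 were higher in the single fit and 3 with a mean count of at least 50. In Kdm5b against Ctrl 2C 1 factor was lower in the single fit, 1 homeobox gene within strip 11, and of 2C genes 2 were lower in DESeq2, the single fit and the strip covariate and 1 within strip 11. The shares of all genes called at these settings are not given here, for members or for lists. The counts therefore show how calls moved and cannot be set against all genes.

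Directions reversed only for values near 0 or with wide errors. Obox7 between Ctrl stages went to -0.018 with no filter. Obox3 in Kdm5b against Ctrl 2C went to 0.022 with the replicate block, 0.61 with the strip covariate and 1.09 within strip 11, where Obox6 went to 0.62; Obox6 went to 0.076 in the interaction with the strip covariate. Without single libraries, values in zygotes ran from -0.022 to 0.020 for Obox1 and from -0.091 to 0.0045 for Obox7, and dose slopes from -0.048 to 0.037 and from -0.053 to 0.087. The cause was not tested.

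In Kdm5b zygotes CPM put Obox3 in rank 5 and Obox6 in rank 6 by level. Of the 3 genes most like each member, Spearman's rho shared 1 for Obox6 and 0 for the others, and the 15 2C libraries alone shared 0. Unique windows of 50 bases made up 42.58% for Obox1, 34.85% for Obox2, 81.94% for Obox5, 78.87% for Obox7, 79.81% for Obox3 and 94.98% for Obox6; those of double the main length made up 74.65%, 71.55%, 100%, 100%, 96.43% and 100%.

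Same-numbered libraries shared only a number: their deviations correlated at a median of 0.044 (10 zygote pairs) and -0.072 (6 2C pairs), with 1 best match to the own number in each. The strip covariate was not run between stages, since each strip holds 1 stage, and no genome was used for the windows. Obox3 and Obox6 had at most 35 and 14 fragments in any zygote library, so their zygote values rest on few fragments.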
